A study of Mus musculus with 12 samples.

Results

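In mouse liver, 12 annotated genes were at least 4-fold higher on a high-fat diet (HFD) than on a normal diet (ND) both in wild-type mice (WT) and in mice lacking NLRP6 (KO). They were found among 41096 annotated genes in a count table of 42554 rows. Levels are in CPM, the reads of a gene scaled to a common library total. A gene was taken when its mean over all 12 libraries lay between 1 and 1000 CPM and when the group mean on HFD, with 0.1 CPM added, was at least 4 times the group mean on ND, with 0.1 CPM added, in each genotype. A short block of ID numbers was left out by the rule, and 0 genes in it would have met the fold in both genotypes. The members were thus chosen by their levels and their diet folds in WT and in KO, which are given below as a description, with no test. Of 11702 annotated genes in that range of levels, 60 reached the fold in WT and 86 in KO. In WT alone 48 reached it, and in KO alone 74, so most of the strongest rises on the diet met the threshold in a single genotype.

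The study asked how NLRP6 bears on fat storage in hepatocytes. All mice ate a normal diet until 8 weeks of age, then WT and KO mice either stayed on it or received the high-fat diet for 12 weeks, which gave 4 groups of 3 whole-liver libraries each (WT ND and KO ND, then WT HFD and KO HFD). The KO animals are labelled only as NLRP6 knockout, and the stated design says that NLRP6 was absent from their hepatocytes. Strain, sex and the kind of deletion are not given in the sources used here.

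NLRP6 is a sensor protein of the NOD-like receptor family that is best known for its part in inflammasomes, the complexes that activate caspases and inflammatory cytokines. A prolonged high-fat diet makes hepatocytes store triglyceride in lipid droplets. Livers under such a diet commonly raise genes for fatty acid uptake, droplet coating and fatty acid oxidation, and with time genes of inflammation and scarring. None of the 12 genes could be assigned to these programmes, because the count table gives strain-specific IDs and 0 of them matched a symbol in the gene tables used here. The level of Nlrp6 itself and of hepatocyte and other cell type markers was not analysed here for the same reason. In whole liver, fewer cells of a type and less RNA per cell cannot be told apart.

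The genes are numbered 1 to 12 from the highest to the lowest mean level over the 6 HFD libraries, and 4 of them are named by ID. Member 1 is MGP_C57BL6NJ_G0028258 and member 2 is MGP_C57BL6NJ_G0021751, the most abundant pair. Member 5 is MGP_C57BL6NJ_G0017861 and member 6 is MGP_C57BL6NJ_G0021457, the pair with the lowest fold of KO against WT among members called on HFD. Library totals were 13339879 to 15933886 counts, and all 12 members passed the filter on low counts. A member that was high on a single diet could pass through that diet alone. Members 5 and 11 reached the rule's lowest mean of 1 CPM only through WT HFD: their means over the other 9 libraries were 0.318 and 0.991 CPM. Without KO HFD all 12 reached it.

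Most of the 12 were minor transcripts. The mean over all libraries was under 10 CPM for 9 of them and ran from 1.70 to 107 CPM, with a median of 5.78 CPM. On ND the group means ran from 0.0237 to 40.0 CPM in WT and from 0.0656 to 29.0 CPM in KO. On HFD they ran from 2.72 to 225 CPM in WT and from 0.865 to 134 CPM in KO. The lowest ND levels rest on a few reads per library, and member 5 alone had libraries with 0 counts.

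**Figure D1:**
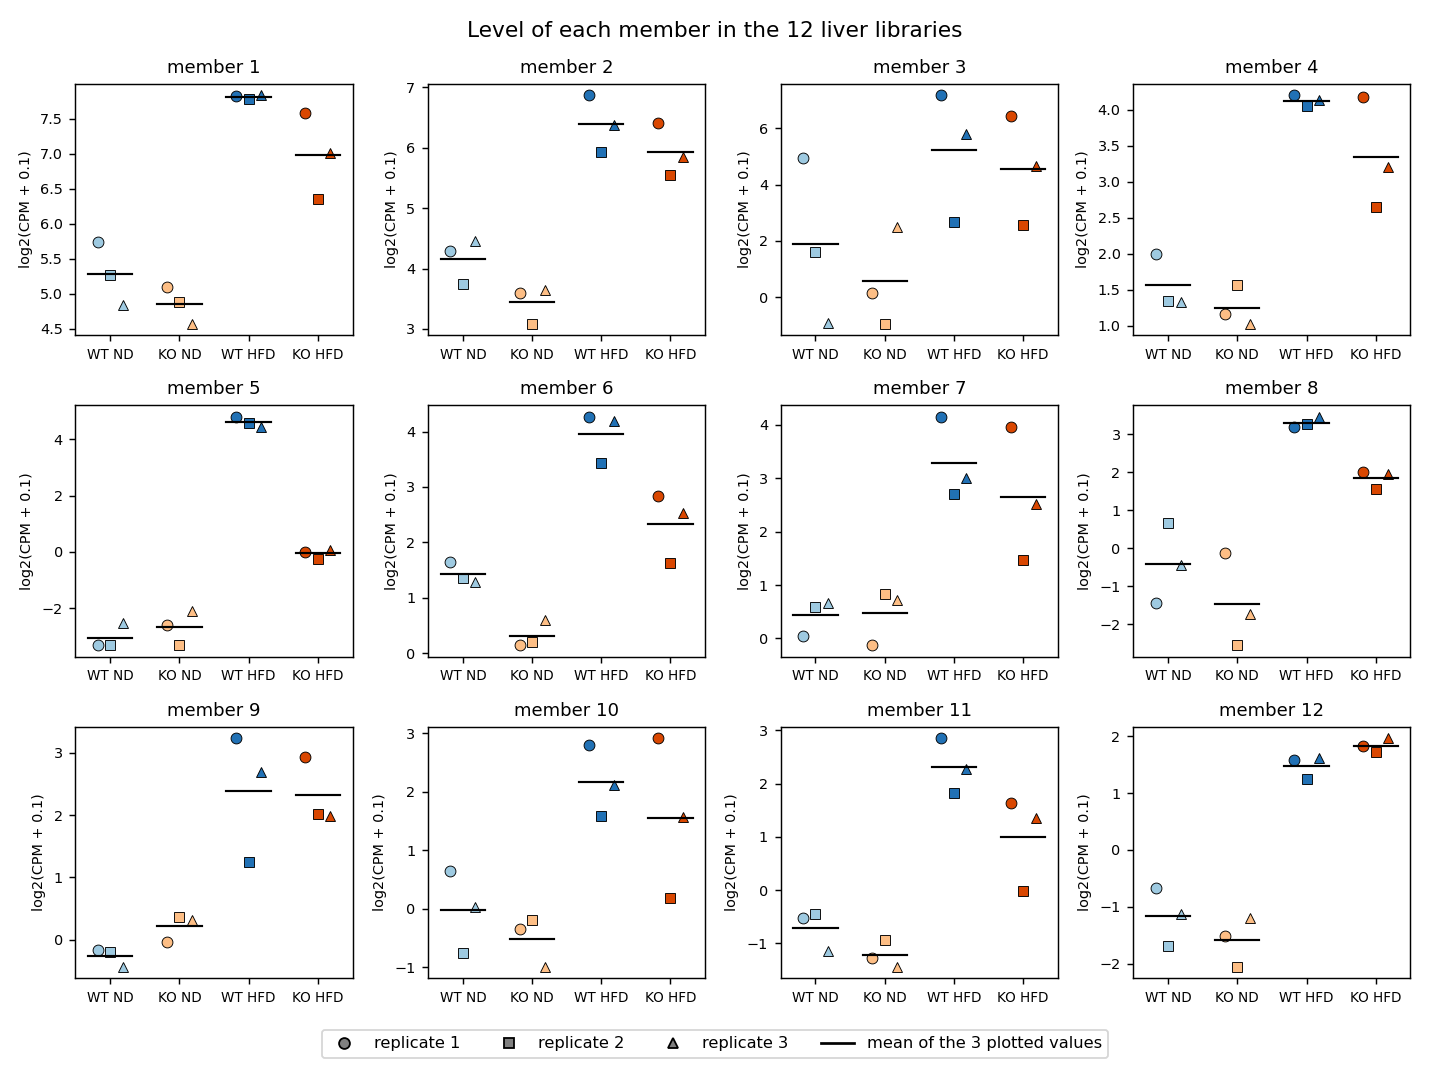
Level of each member in each library, as log2 of CPM plus 0.1, with a panel per member, groups on the horizontal axis, symbols for replicates and a bar for the mean of the plotted values. The HFD libraries lie above the ND libraries of the same genotype in every panel except that of member 3 in WT, and the vertical scale differs between panels.

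Member 1 carried about as many reads as the other 11 together. Its WT ND libraries had 53.0, 38.5 and 28.6 CPM and its KO ND libraries 34.0, 29.2 and 23.7 CPM. On HFD it had 227, 219 and 228 CPM in WT and 192, 81.2 and 128 CPM in KO. The WT HFD libraries were nearly level, whereas the KO HFD libraries were spread over more than 2-fold and all lay below them. Its diet fold was 5.61 in WT and 4.61 in KO.

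Member 2 had 19.5, 13.4 and 21.7 CPM in WT ND and 12, 8.41 and 12.5 CPM in KO ND. On HFD it had 117, 61.1 and 82.5 CPM in WT and 84.7, 46.6 and 57.6 CPM in KO. Here the genotypes did not overlap on ND, where KO was lower, and did overlap on HFD. The fold was 4.75 in WT and 5.69 in KO.

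Member 5 was almost silent on ND and separated the genotypes most on HFD. It had 0, 0 and 1 count in the WT ND libraries and 1, 0 and 2 counts in the KO ND libraries. On HFD the WT libraries had 384, 345 and 296 counts and the KO libraries 12, 10 and 14. The ratio of summed HFD to ND counts per library total was 1060 in WT (95% exact binomial interval 190 to 41913) and 13 in KO (4.12 to 66.2). The intervals show how few ND counts the ratios rest on, cover counting error only and are no test, since the rule chose the gene by these folds. It had the highest fold of all 11702 genes in WT (198 with 0.1 CPM added) and ranked 38 in KO (5.83), so that the WT fold was 34.0 times the KO fold.

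Member 6 had 3.04, 2.45 and 2.34 CPM in WT ND and 1.0, 1.05 and 1.41 CPM in KO ND. On HFD it had 19.2, 10.7 and 18.1 CPM in WT and 7.05, 2.97 and 5.64 CPM in KO. KO lay below WT without overlap on both diets, which held for no other member. The folds were 5.93 in WT and 4.24 in KO, the latter the closest to the threshold of any member.

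Member 3 met the rule through means that rest on a few libraries. It had 30.5, 2.94 and 0.426 CPM in WT ND and 1.0, 0.421 and 5.57 CPM in KO ND. On HFD it had 145, 6.32 and 56.0 CPM in WT and 87.5, 5.80 and 25.3 CPM in KO. The WT diets overlapped, since WT ND replicate 1 was above WT HFD replicate 2, and in KO the lowest HFD library was only 1.04 times the highest ND library. Its coefficient of variation between replicates was 102% to 148% over the 4 groups. Its fold of 16.3 in KO was the highest of the 12 there, and its fold in WT was 6.10. Without WT HFD replicate 1 it no longer met the rule.

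The remaining members formed a graded series at low level. Member 8 was the second most induced in WT, from 0.264, 1.47 and 0.640 CPM on ND to 9.01, 9.54 and 10.9 CPM on HFD, and went from 0.816, 0.0701 and 0.201 CPM to 3.90, 2.83 and 3.81 CPM in KO. Its KO HFD libraries all lay below its WT HFD libraries, as they did for members 1, 5, 6 and 11. This gap was found for 4.51% of the 13843 genes that passed the filter on low counts. For members 5 and 11, which entered the set only through WT HFD, it is a description and no support. Member 12, the least abundant, ran the other way, with 2.91, 2.27 and 2.99 CPM in WT HFD and 3.45, 3.20 and 3.81 CPM in KO HFD. It was the only member with all KO HFD libraries above all WT HFD libraries, against 8.78% of those 13843 genes. Its fold was 6.07 in WT and 10.5 in KO. Members 4, 7, 9, 10 and 11 had folds of 4.50 to 8.29 in WT and of 4.47 to 5.56 in KO, with WT HFD means of 4.65 to 17.4 CPM.

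**Figure D2:**
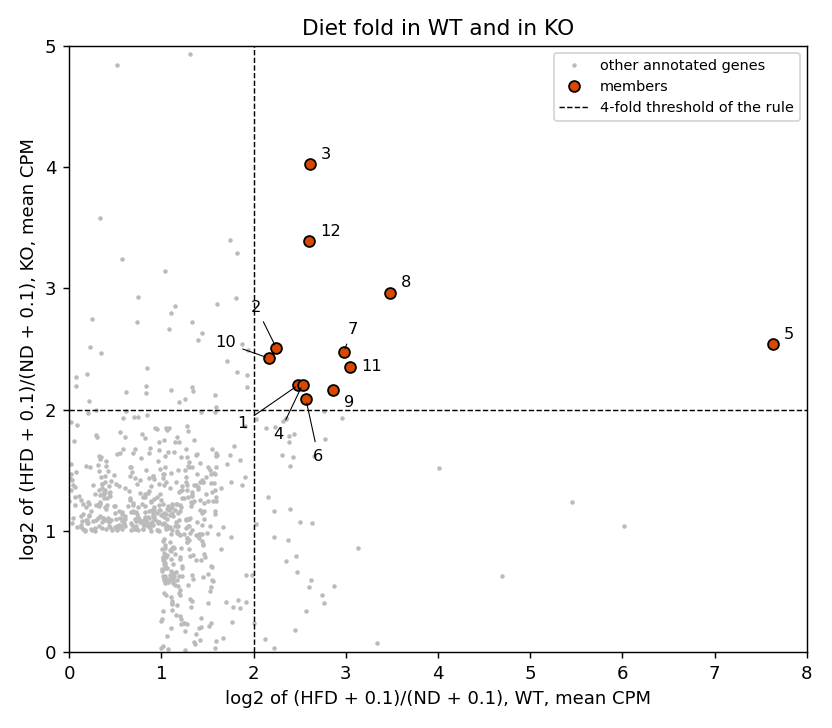
Diet fold of the group mean CPM, with 0.1 CPM added, in WT (horizontal axis) and in KO (vertical axis), both as log2, for the 12 numbered members and 638 other annotated genes that were at least 2-fold higher on HFD in WT or KO and lie within the axes. Dashed lines mark the 4-fold threshold, most members lie close to it, and members 3, 5 and 12 lie away from the diagonal.

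The folds of most members lay near the threshold. The median fold was 6.08 in WT and 5.46 in KO, where the median over all 11702 genes was 0.788 and 0.866, and 9 of the 12 had a fold under 6 in WT or KO. Just inside, the lower of the 2 folds was 4.24 for member 6, 4.47 for member 9, 4.50 for member 10 and 4.61 for member 1. Just outside were genes at 3.97, 3.85, 3.81 and 3.81. The first of these was more abundant than any member, with 71.6 CPM in WT ND, 488 CPM in WT HFD, 66.4 CPM in KO ND and 264 CPM in KO HFD. The fold was higher in WT for 8 members and higher in KO for members 2, 3, 10 and 12. HFD libraries lay above ND libraries without overlap for 11 members in WT and 12 in KO, which the rule made likely. Such a gap was found for 15.1% of the 13843 genes tested in WT and 19.1% in KO.

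The set depended on the scale and on single libraries. With library sizes scaled by trimmed means of M-values (TMM), which lowered the totals of HFD libraries against those of ND libraries by 0.29 (WT) and 0.20 (KO) on the log2 scale, the rule took 32 genes, all 12 among them. Without KO HFD replicate 1 it took 7, of which 6 were members, and without KO HFD replicate 2 it took 24, with all 12. With 1 CPM in place of 0.1 CPM added to the means it took members 1, 2 and 3 alone.

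KO was next set against WT within each diet, a contrast the rule did not apply, although it used the same group means. On HFD the KO level was the lower for 11 of 12 members, and 2 of them, members 5 and 6, were called (edgeR quasi-likelihood test, adjusted p under 0.05 over 13843 genes). Members 5 and 11, both among those lower in KO, had entered the set only through their WT HFD level. Their differences on HFD are a description and no support. Of all genes tested 0.246% were called, 0.159% in the lower direction, and 48.0% had a lower fitted level in KO. The median log2 fold change of KO against WT was -0.75 over the members and 0.01 over all genes tested. Without WT HFD replicate 1 the lower level was found for 7 of the 12 and the median was -0.45. Dropping replicate 1 of KO HFD gave a median of -1.40, and dropping replicate 2 gave -0.35.

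On HFD member 5 had a mean of 24.4 ± 3.22 CPM in WT against 0.865 ± 0.108 CPM in KO (SD, n = 3 per group), a fitted log2 fold change of -4.87 (SE 0.30), given without its p for the reason above. For member 6 these means were 16 ± 4.6 CPM and 5.22 ± 2.07 CPM (SD, n = 3 per group), a log2 fold change of -1.67 (SE 0.31, edgeR adjusted p = 0.0446). Over the 18 alternatives this value ran from -1.99 to -1.36, and the adjusted p (edgeR or DESeq2) from 0.000222 to 0.246, and the call was lost under 10 of them. These were the fit of the HFD libraries alone and the omission of any single library other than WT ND replicate 1, WT HFD replicate 2 or KO HFD replicate 1.

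The other 10 members did not pass on HFD. Member 8 had a log2 fold change of -1.55 (SE 0.44, edgeR adjusted p = 0.201), although its genotypes did not overlap. Those of member 11 did not overlap either, at -1.32 (SE 0.41). For member 11, as for member 5, the value and the gap are a description given without p. It too needed WT HFD to enter the set. DESeq2 called member 8 as well as members 5 and 6, and 1.89% of all genes. Member 1 had a log2 fold change of -0.80 (SE 0.31, edgeR adjusted p = 0.357). The highest value was that of member 12, at 0.29 (SE 0.31, edgeR adjusted p = 0.781). All WT HFD libraries lay above all KO HFD libraries for 5 members, against 4.51% of the genes tested. Members 5 and 11 are among these 5, so the count is raised by the way they were chosen. The reverse held for member 12 alone, against 8.78%.

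**Figure D3:**
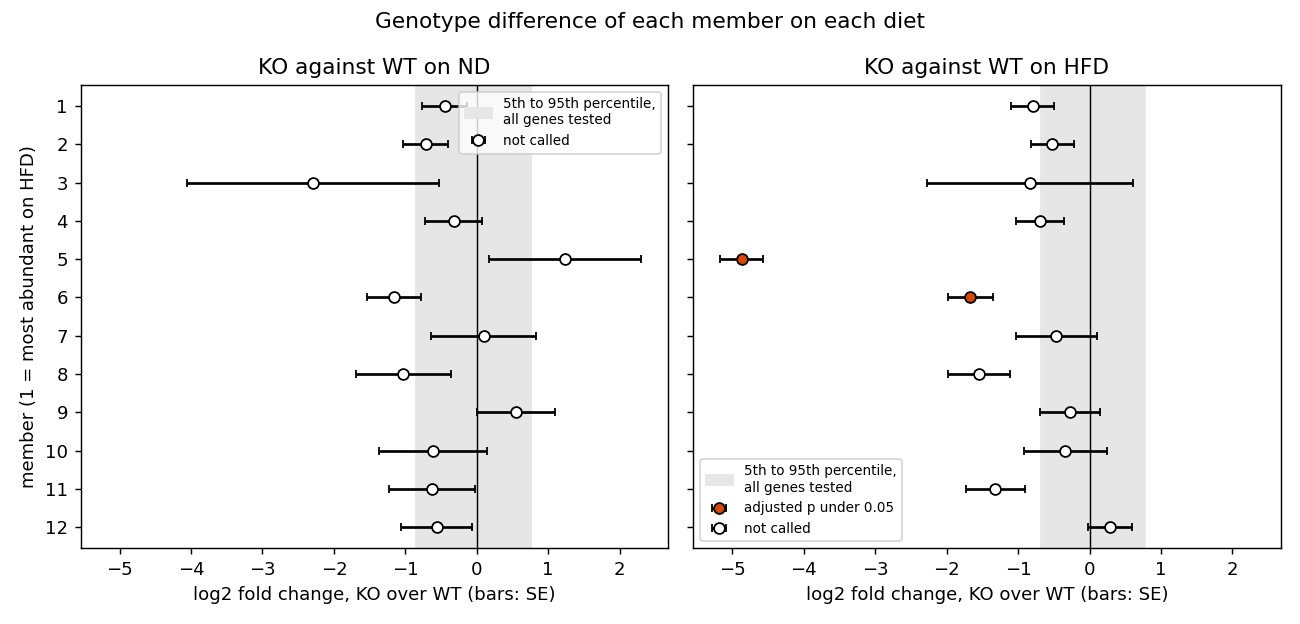
Fitted log2 fold change of KO over WT for each member on ND (left) and on HFD (right), with standard errors as bars and the 5th to 95th percentile of all 13843 genes tested as a grey band. Members 5 and 6 on HFD, the filled points, had an adjusted p under 0.05, and 11 of 12 members lie left of 0 on HFD and 9 of 12 on ND. Members 5 and 11 entered the set only through WT HFD, so their points on HFD are a description and no support.

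On ND no member passed the test. The KO level was lower for 9 of 12 members, where 50.3% of all genes tested were lower, and the median log2 fold change was -0.58 over the members and 0.00 over all genes. Of all genes tested 4.81% passed. At an unadjusted p under 0.05 there were 2 members, 2 and 6, against 21.3% of all genes. DESeq2 called member 6 alone, with 9.67% called among the genes to which it gave an adjusted p. Member 6 had a mean of 2.61 ± 0.375 CPM in WT ND against 1.15 ± 0.221 CPM in KO ND (SD, n = 3 per group), a log2 fold change of -1.16 (SE 0.38, edgeR adjusted p = 0.0908). Member 2 had 18.2 ± 4.34 CPM against 11 ± 2.23 CPM (SD, n = 3 per group), a log2 fold change of -0.72 (SE 0.31, edgeR adjusted p = 0.215). The WT ND libraries of these members lay above all KO ND libraries, a gap found for 17.4% of the genes tested, and the reverse was seen for member 9, against 14.8%. Without WT ND replicate 1 the median over the members was -0.17. In a fit of the ND libraries alone, 8 of the 12 members passed the filter on low counts, and 6 of these 8 were lower in KO.

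Averaged over both diets, member 6 was the only member called, against 1.55% of all genes tested. Its log2 fold change was -1.41 (SE 0.24, edgeR adjusted p = 0.0138). KO was lower for 11 of the 12 members, with a median log2 fold change of -0.62 over the members and 0.01 over all genes tested. The share of all genes that were lower on average was not counted. Members 5 and 11 are among the lower ones and entered the set only through WT HFD, so they are no support. This average uses the same libraries as the comparisons within each diet. For member 5 the average was -1.82 (SE 0.96), given without its p because the average includes WT HFD. Its fitted ND difference of 1.24 rests on 1 count in WT and 3 in KO.

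The 12 members largely shared the order of the libraries within each HFD group. The summed level of the 12 was 114, 64.7 and 60.0 CPM in WT ND and 54.0, 46.3 and 49.1 CPM in KO ND. It was 608, 364 and 461 CPM in WT HFD and 431, 158 and 249 CPM in KO HFD. WT HFD replicate 2 was below KO HFD replicate 1, so the sums of the genotypes overlapped on HFD. Every HFD library lay above every ND library, which the rule made likely. Member 1 made up 37.4% to 63.2% of the sum, and without it the HFD libraries had 381, 145 and 233 CPM in WT and 239, 76.9 and 121 CPM in KO, in the same order within each group. The 95% Wilson interval for KO HFD replicate 2, from 151 to 165 CPM, covers counting error only and was small against the gaps between replicates.

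Within KO HFD, replicate 1 was the highest library for 10 of 12 members and replicate 2 the lowest for 11. Among the 11690 other annotated genes between 1 and 1000 CPM, replicate 1 was the highest for 31.2% and replicate 2 the lowest for 28.6%. The order 1, 3, 2 from high to low was found for 9 members and 21.7% of the others. Within WT HFD, replicate 1 was the highest for 9 members and replicate 2 the lowest for 10, against 37.8% and 35.7% of the other genes. The highest KO HFD library exceeded the lowest by a median of 2.37-fold over the members and 1.42-fold over the others, and in WT HFD by 1.85-fold and 1.31-fold. These values were computed after the pattern had been seen and describe these libraries. The rule itself used the HFD means, so a gene with 1 high HFD library could enter the set more easily. Without KO HFD replicate 1, 6 of the 12 still met the rule, and without WT HFD replicate 1, 9 did. The shares among the other genes, which the rule did not choose, are therefore no test of the pattern.

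**Figure D4:**
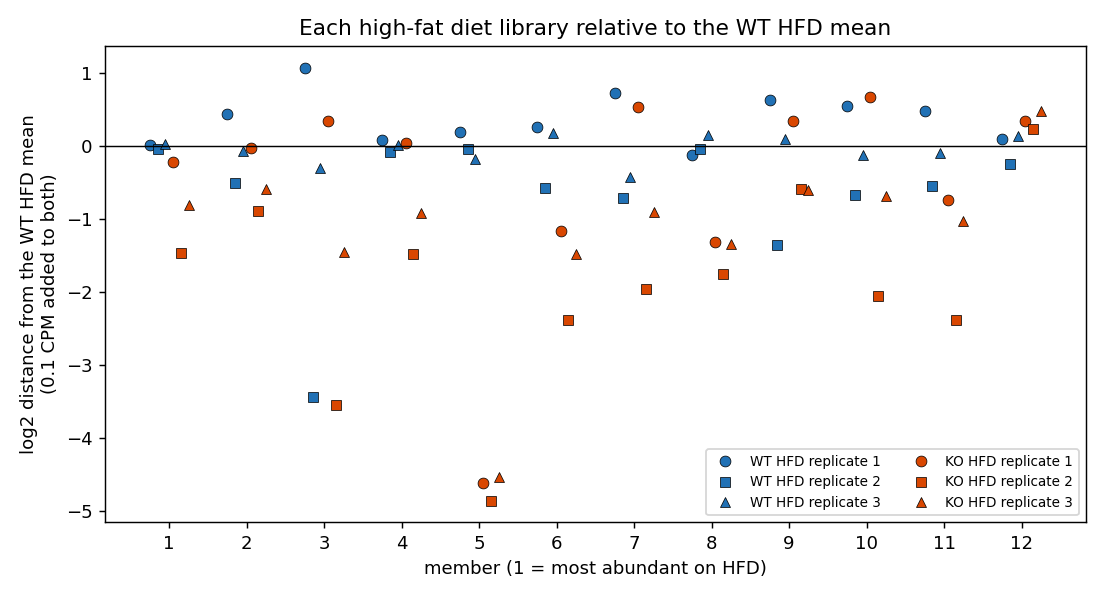
Log2 distance of each HFD library from the WT HFD mean for each member, with 0.1 CPM added to both, WT libraries in blue and KO libraries in orange, and symbols for replicates. KO HFD replicates 2 and 3 lie at or below the lowest WT library for most members, whereas replicate 1 lies below the lowest WT library for members 1, 5, 6, 8 and 11, by a small margin for members 1 and 11.

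The lower KO level lay mostly in KO HFD replicates 2 and 3. Both were below all WT HFD libraries for 9 of 12 members, against 12.7% of the other genes. Members 5 and 11, which needed WT HFD to enter the set, are among these 9. KO HFD replicate 1 lay above all WT HFD libraries for 2 members, within their range for 5 and below them for 5. Relative to the WT HFD mean the median member was at 0.00 on the log2 scale in KO HFD replicate 1, at -1.86 in replicate 2 and at -0.92 in replicate 3, and the median of the other genes was at -0.02, 0.16 and 0.09. Without KO HFD replicate 1, 5 members were called between genotypes on HFD (1, 4, 5, 6 and 11), all lower in KO, where 5.79% of all genes were called. Without replicate 2 or replicate 3, member 5 alone was called, with 0.0844% and 0.0493% of all genes. Members 5 and 11 needed WT HFD to enter the set, so their calls here are a description and no support.

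The members fell into 4 patterns by their values. Member 5 had tight replicates on HFD in both genotypes (coefficients of variation of 13.2% in WT and 12.5% in KO) and a KO level at 3.55% of the WT level. Members 6, 8 and 11 kept non-overlapping genotypes on HFD with KO at 32.7% to 41.5% of WT. Such a gap, with WT above KO, was found for 4.51% of all genes tested. Members 5 and 11 entered the set only through WT HFD, so their values here are a description and no support. Members 1, 2, 3, 4, 7, 9 and 10 had KO means at 57.1% to 85.9% of WT, with genotypes that overlapped on HFD for all but member 1. Member 12 had a KO mean at 128% of WT and the lowest coefficient of variation of any member in KO HFD, at 8.81%. These groups were drawn after the values were seen and carry no test.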

How the data were processed

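RNA from frozen liver (TRIzol) was prepared with a NEBNext Ultra RNA kit, per the labels' protocols. The authors deposited raw read counts per gene for 12 libraries. Per the submitters' processing notes, HISAT2 2.0.5, featureCounts 1.5.0-p3 and the build mm39 were used. The IDs are those of a C57BL/6NJ annotation, so no coordinates are given, and the sources used here do not say how reads of near-identical or overlapping genes were treated.

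CPM were computed from column totals of 13339879 to 15933886 counts. No replicate pair was a duplicate (chi-square per degree of freedom 8.05 to 165). Genes were filtered with filterByExpr and tested with edgeR 4.0.16 (TMM, robust quasi-likelihood F-test, a mean per group over 12 libraries, R 4.3.3), with Benjamini-Hochberg adjustment over 13843 genes. The steps were tested on simulated counts. Replicates are separate samples in the labels and may not be separate animals, so a p-value here sets a difference against the spread of these samples, which may be technical. DESeq2 1.42.0, other normalizations and filters, a replicate block, single-diet fits and omission of each library were tried as alternatives.

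Members, lists and comparisons were chosen with earlier results of these data known. The naming rule took the 2 most abundant members on HFD and the 2 called members with the lowest log2 fold change on HFD. Other members, and genes outside the threshold, are given without an ID. Gene and cell type lists were not analysed here because no ID matched a symbol.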

Additional observations from a re-analysis of the deposited data

How the results depend on the processing

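The rule took 12 genes as reported, 32 on TMM-scaled library sizes, 3 with 1 CPM added to the means and 7 to 24 with 1 library left out (7 without the first and 24 without the second KO HFD replicate). The cause was not tested. Between genotypes on HFD 2 members were called. A fit of the HFD libraries only, which has fewer samples to estimate the spread, called 1 (0.0622% of all genes called). With 1 library left out 1 to 5 were called (0.0493% to 5.79%). Wherever 1 member was called on HFD it was member 5, which needed WT HFD to enter the set, so that call is no support. The call of member 6 on HFD was lost under 10 of the 18 alternatives. On ND 0 were called, and 1 with DESeq2 (9.67% of the genes to which it gave an adjusted p). The ND libraries alone, where 8 members passed the filter, gave 1 (7.12% of all genes). With 1 library left out 0 to 1 were called: member 6 without KO HFD replicate 1 (8.28%) or 2 (5.62%). These single calls on ND are thus near the background. For the average over diets 1 was called, and 2 with DESeq2 (4.85% of the genes to which it gave an adjusted p). With 1 library left out 1 to 4 were called: 4 without KO HFD replicate 1 (7.47% of all genes) and 2 without KO ND replicate 1 (0.909%). With the replicate block, 2 members were called on HFD (members 5 and 6; 0.34% of all genes), 2 on ND (members 2 and 6; 6.44%) and 2 on average (members 2 and 6; 2.31%). The numbers were not shown to pair the samples: the deviations of same-numbered libraries correlated by -0.0170 to 0.246, 5 of 18 pairs exceeded 0.1, and 7 of 12 libraries correlated best with their own number. Scaling by column totals without factors, chosen after seeing the data, changed no count of calls. No log2 fold change of members 1, 2, 5 or 6 changed sign on HFD or ND under the 18 alternatives, except that member 5 was not tested with the ND libraries alone. Counts under 3 per library, as for member 5 on ND, are within the limit that a count of 0 allows.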
